A study of Caenorhabditis elegans with 2 samples.

Results

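Of the 3531 peaks at which eGFP-tagged CEH-28 was mapped in L3 larvae of Caenorhabditis elegans, 277 had their summit on the X chromosome and outside every promoter window. The summit is the base at which the authors' caller placed the top of a peak. The windows cover the stretch around every annotated transcript start of a protein-coding gene, with 1000 bp before it and 200 bp after it, and no measured value was used in the choice. The 277 summits were 50.4% of the 550 summits on X and 7.84% of the whole list, and they came from 275 distinct intervals. The other 273 X summits lay in promoter windows, and the autosomes held 1391 summits outside such windows and 1590 within them.

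Chromatin was taken from whole larvae of strain OP241, with both sexes pooled, in 2 biological replicates of 1 group. The strain carries the unc-119(ed3) mutation on chromosome III and the integrated transgene wgIs241, which supplies the tagged ceh-28 gene, and the precipitation was directed at the tagged protein. No strain without the transgene and no other stage was among the samples, so comparisons were made between classes of peaks. The 2 replicates shared the strain, the stage and the transgene, and a p-value here describes the peaks of these replicates. In whole larvae, binding in fewer cells and weaker binding in each cell cannot be told apart. The lists hold a signal per peak, the authors' own value relative to a control, and no read counts, so depth is unknown. All coordinates are on ce11, counted from 1.

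The homeodomain factor CEH-28, of the NK-2 class, is known from the M4 motor neuron of the pharynx, where it is known to hold down egl-17 and to activate dbl-1. The X chromosome of the worm is unusual in its regulation. In hermaphrodites a condensin-containing dosage compensation complex binds both X chromosomes and lowers their transcription, while males have a single X. The complex is loaded at dispersed recruitment sites on X that carry a GC-rich motif with GCGCAGGG at its core, and it spreads from there. Positions of annotated recruitment sites were not analysed here, so a match to GCGCAGGG below is a match of letters only. The X chromosome also holds a large share of the tRNA genes of the worm, which are transcribed by RNA polymerase III from promoter elements inside the gene, among them the B box.

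The sequences that the strongest of these summits share are best seen in the DNA itself. The summit base with 50 bp on each side is given for the 5 members of highest signal and for the strongest member that also carries CTGCGTC, on the plus strand from RefSeq's WBcel235 sequence, the same assembly as ce11. Capitals mark GCGCAGGG, the word AATCGAT, its relative AATCAAT, and the word CTGCGTC, or the reverse complement of any of these. An intergenic member is named here and below by the nearest 5′ end of a protein-coding gene, and the body of another gene may lie closer.
Upstream of xol-1, chrX:8036385-8036485: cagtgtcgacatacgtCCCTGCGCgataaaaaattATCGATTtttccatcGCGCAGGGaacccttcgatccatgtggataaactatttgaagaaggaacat
Nearest 5′ end W02H3.3, chrX:11094140-11094240: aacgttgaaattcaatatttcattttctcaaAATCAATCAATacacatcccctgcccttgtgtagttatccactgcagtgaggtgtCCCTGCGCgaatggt
Nearest 5′ end F55G7.5, chrX:11937473-11937573: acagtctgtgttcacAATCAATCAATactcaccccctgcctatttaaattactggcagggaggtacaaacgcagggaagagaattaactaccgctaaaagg
Nearest 5′ end ZK899.6, chrX:9465847-9465947: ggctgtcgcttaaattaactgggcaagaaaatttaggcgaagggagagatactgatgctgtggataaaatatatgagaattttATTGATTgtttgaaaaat
Nearest 5′ end F19H6.5, chrX:12363101-12363201: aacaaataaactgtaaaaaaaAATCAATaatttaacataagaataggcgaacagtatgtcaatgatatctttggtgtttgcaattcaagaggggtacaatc
Nearest 5′ end gtr-1, chrX:806638-806738: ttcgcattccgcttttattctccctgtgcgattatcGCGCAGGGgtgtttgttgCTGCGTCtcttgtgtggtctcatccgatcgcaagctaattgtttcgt
The first sequence holds 2 copies of GCGCAGGG in opposite orientations on either side of AATCGAT, and the sequences named for W02H3.3 and F55G7.5 each hold 2 overlapping copies of AATCAAT. Of the 6, GCGCAGGG is found in the first and in those named for W02H3.3 and gtr-1.

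The 5 members just shown were also the 5 strongest peaks of the whole list, and both replicates placed them near the top. The peak 4878 bp upstream of xol-1, the switch gene of sex determination, ran from 8036001 to 8036973 and had a signal of 5643, with 3107 in replicate 1 and 2568 in replicate 2. It was the strongest peak of either replicate. The second, from 11093842 to 11094502, had a signal of 3660, with 2073 in replicate 1 and 1595 in replicate 2. The third, from 11937220 to 11937867, had a signal of 2606, with 1414 and 1201 in the replicates in the same order. In both replicates all 5 stood among the 7 strongest. The fourth had a signal of 2497 (1513 and 996), and the fifth 2376 (1351 and 1029).

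Among the next members, the intergenic peak nearest to the 5′ end of F20B6.9 had a signal of 2192 (1265 in replicate 1 and 934 in replicate 2), that nearest to the 5′ end of F22H10.2 one of 1737 (961 and 779), and that upstream of fbxb-58, an F-box protein gene, one of 1722 (990.2 and 735). The strongest member inside a gene lay in an intron of mom-1, which encodes the worm counterpart of Porcupine and is needed for secretion of Wnt proteins. It ran from 6296261 to 6296937 and had a signal of 1642, with 926 in replicate 1 and 725 in replicate 2. An intron of Y41G9A.17 held 3 members, of which 2 lay 200 bp apart in 1 interval, from 2996733 to 2997490, with signals of 1221 and 311. The remaining members of the 20 strongest included peaks nearest to the 5′ ends of K02D3.1 (signal 1358), T27A8.7 (1138), gtr-1 (926), T24D8.6 (925) and col-185, a collagen gene (853). One lay in a coding exon of pks-1, a polyketide synthase gene (819, with 429 and 391 in the replicates). The last 4 were nearest to the 5′ ends of srg-64, a chemoreceptor gene (signal 695), F56C3.1 (564), sli-1, the worm Cbl gene, which restrains EGF receptor signalling (538), and tmem-184 (531). Of these 20 members, 17 were intergenic, 16 ranked among the 100 strongest peaks of both replicates, and all 20 overlapped one of the 3531 highest peaks of each replicate, called strong below.

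A steep fall in signal followed these few. The median over the 277 members was 99.2 (quartiles 77.3 and 161, range 66.0 to 5643), whereas the median of the whole list was 109.5. The members supplied 9 of the 20 strongest peaks of the list, 17 of the 100 strongest and 31 of the 500 strongest, and 124 of them (44.8%) exceeded the median of the list. X summits in promoter windows had a higher median, 108, and a lower maximum, 2022, with 1 peak among the 20 strongest. Autosomal summits outside promoter windows had a median of 116 and a maximum of 2302, with 9 among the 20 strongest. These signals are a description of 1 ranked list, and no test was made on them.

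Most members were found in both replicates. A peak of the relaxed list of 30000 overlapped 276 of the 277 members in replicate 1 and all 277 in replicate 2. The peaks described here were derived from the relaxed lists, so this overlap was largely fixed in advance. A strong peak overlapped 220 members in replicate 1 (79.4%), 244 in replicate 2 (88.1%) and 197 in both (71.1%, 95% Wilson interval 65.5% to 76.1%). The share strong in both was 74.6% for autosomal summits outside promoters, and the odds ratio was 0.841 (95% interval 0.627 to 1.14, adjusted p = 0.315 by a two-sided Fisher's exact test). With a promoter window from 2000 bp upstream the odds ratio was 1.05 (exact adjusted p = 1.00). Among summits in promoter windows, the share strong in both was 74.7% on X and 73.3% on autosomes. The share strong in both follows the ranking by signal, since the list was made from both replicates. In the upper 25% by signal, 69 of 69 members were strong in both replicates, then 68 of 69, 49 of 69, and 11 of 70 in the lowest 25%. Across the 276 members with a partner in both lists, the replicate signals had a Spearman rho of 0.73, which is given as a description because members are not replicates and the list was made from both samples.

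**Figure D1:**
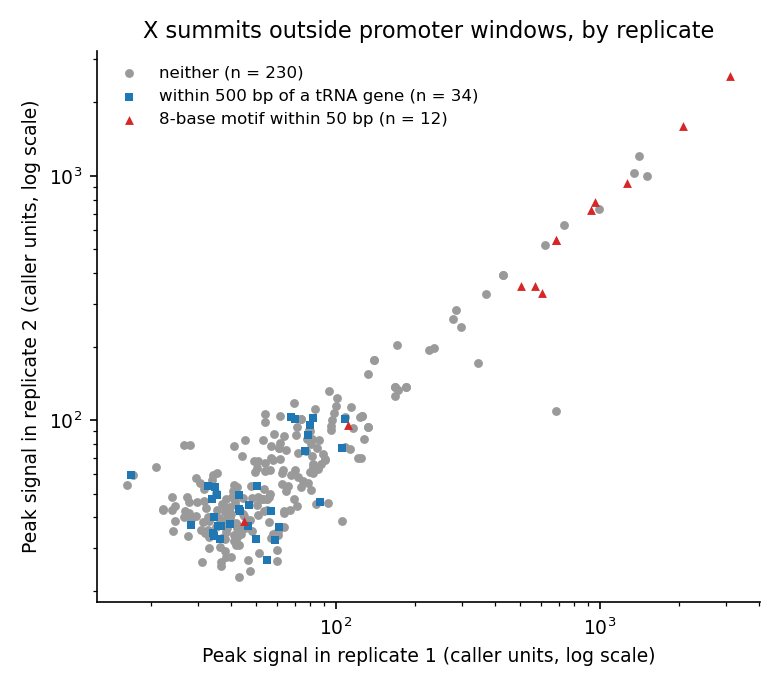
Peak signal of each member in replicate 1 (x axis) and replicate 2 (y axis), both in the units of the authors' caller on log scales, for the 276 members with a partner in both relaxed lists. Red triangles mark 12 members with GCGCAGGG (the 8-base motif), 2 of which share 1 replicate peak and coincide, blue squares 34 other members within 500 bp of a tRNA gene, and grey circles the remaining 230. The triangles reach the top right corner, at 3107 and 2568, and the squares lie in the lower part of the cloud.

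The plot of replicate signals shows 1 grey point well below the others at its level in replicate 1. It is the remaining member in the intron of Y41G9A.17, with a signal of 229.6, whose replicate 1 partner is the wide peak of 681 that also covers both other summits, while its replicate 2 partner has a signal of 109.

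Members lay mainly outside protein-coding genes. Intergenic here means outside the body of every protein-coding gene, so it includes positions inside non-coding genes. Intergenic sequence held 188 members (67.9%, 95% Wilson interval 62.2% to 73.1%), introns 74 (26.7%, 21.8% to 32.2%), UTRs 9 (3.25%) and coding exons 6 (2.17%). Of the X sequence outside promoter windows, 41.3% is intergenic, 33.1% intronic, 4.08% UTR and 21.5% coding. Counted per Mb of each class, there were 32.8 summits in intergenic sequence, 16.1 in introns, 15.9 in UTRs and 2.02 in coding exons. Autosomal summits outside promoters were placed otherwise: 36.8% were intergenic and 49.6% intronic, where the autosomal sequence outside promoters is 32.4% intergenic and 37.6% intronic. Against these autosomal summits, members were more often intergenic (odds ratio 3.62, 95% interval 2.73 to 4.83, adjusted p = 2.75e-20 by a two-sided Fisher's exact test, over 15 location tests). They were less often in introns (odds ratio 0.371, 0.274 to 0.497, exact adjusted p = 7.59e-12) and in UTRs (odds ratio 0.318, 0.140 to 0.632, exact adjusted p = 0.000570). In replicate 2 alone the odds ratio for UTRs was 0.493 (exact adjusted p = 0.0191). Above the median signal of the list, the odds ratios were 6.17 for intergenic sequence (exact adjusted p = 8.74e-18), 0.217 for introns (exact adjusted p = 2.54e-12) and 0.169 for UTRs (exact adjusted p = 0.00801). For coding exons the odds ratio was 0.528 (0.184 to 1.24, exact adjusted p = 0.246). X has the larger intergenic share of sequence, and the test does not remove that difference. The intergenic share was 67.2% among the 241 members with no tRNA gene within 500 bp.

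**Figure D2:**
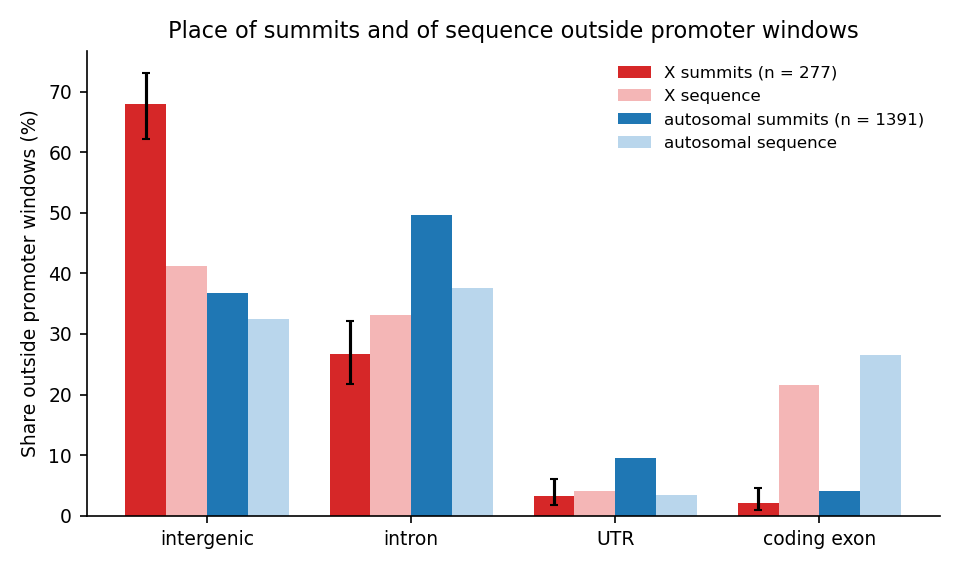
Shares (%) of summits and of sequence outside promoter windows in each class of the annotation, for X (red) and autosomes (blue), with pale bars for sequence. Black lines are 95% Wilson intervals of the X summits. The intergenic share is 67.9% of X summits against 41.3% of X sequence, and 36.8% of autosomal summits against 32.4% of autosomal sequence.

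The 6 coding summits were 2 in pks-1 and 1 each in sdpn-1, the worm syndapin gene (signal 115), C18A11.1 (108), sur-7 (87.1) and ccd-5 (78.9), and all 6 were strong in both replicates. The UTR summits had signals from 70.1 to 117, the highest at nhr-14, and 5 of 9 were strong in both. Distance to the nearest protein-coding 5′ end had a median of 2120 bp (quartiles 1356 and 3535, range 218 to 19993), with 137 summits upstream of that end and 140 downstream. Within 2000 bp of an end lay 29 members at up to 1000 bp and 103 beyond that, and 14 intergenic members were over 5000 bp from any protein-coding gene. On either side of the limit of a promoter window, signals were mixed. Just outside were summits 11 bp away at suca-1 (signal 68.6), 18 bp away at egl-17 (82.8) and 21 bp away at fbxb-58 (1722). Just inside were summits 12 bp from the limit at F09C8.2 (182), 41 bp at ubc-23 (89.7) and 51 bp at hpk-1 (74.8).

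Some of the members lay close to tRNA genes. Of the 277, 36 were within 500 bp of a tRNA gene (13.0%), against 12 of 1391 autosomal summits outside promoters (0.863%), so that the odds ratio was 17.1 (95% interval 8.56 to 36.7, exact adjusted p = 9.33e-19). In replicate 1 alone it was 11.1 (exact adjusted p = 1.23e-12), and above the median signal 10.8 (exact adjusted p = 3.45e-05). X sequence outside promoters is itself richer in such positions, at 1.41% against 0.385% on autosomes. Counted by gene, 47 of the 276 X tRNA genes had a member within 500 bp, which is 17.0% of them, against 13 of 336 on autosomes (3.87%). With promoter summits added, the shares were 20.7% on X and 6.25% on autosomes. Of the 36 members, 22 lay within 50 bp of the tRNA gene, 7 of them inside it, and 26 were intergenic and 9 intronic. For 2 of those inside, the sequence at the summit has exact copies elsewhere in the genome, so their position is uncertain.

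Apart from the peak near xol-1, which lies 250 bp from the arginine tRNA gene C18A11.t2, the members near tRNA genes were weak. Their median signal was 87.1 (quartiles 77.2 and 135), whereas the other 241 members had a median of 104, and 61.1% of them were strong in both replicates against 72.6% of the others. The next strongest was 61 bp from the serine tRNA genes C53C7.t1 and C53C7.t2, with a signal of 210.0 (rank 815 in replicate 1 and 677 in replicate 2). It was followed by a member 28 bp from the lysine tRNA gene C33G3.t2, with a signal of 187 (106 and 77.1), and by one 48 bp from the glycine and glutamate tRNA genes M02F4.t1 and M02F4.t2, with a signal of 179 (81.8 and 102). These 3 were picked once their values had been seen. By isotype, the X tRNA genes with a member within 500 bp were most numerous for arginine (6 of 27), glutamate (6 of 23) and serine (6 of 18), while asparagine (3 of 6) and cysteine (3 of 7) had larger shares on few genes, and no gene for a glutamine (15), methionine (8), phenylalanine (6) or tryptophan tRNA (5) had one. Clustered genes can share a member, so these counts are not counts of separate peaks. All 3 cysteine genes were near a single member, with a signal of 69.7 and not strong in both replicates. The asparagine genes ZK154.t5 and ZK154.t2 also shared a single member (signal 169). AATCGAT or AATCAAT lay at only 3 of the 36 summits.

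Genes annotated simply as ncRNA were also near some members. Within 500 bp of such a gene lay 70 members (25.3%), against 10.3% of autosomal summits outside promoters (odds ratio 2.95, 95% interval 2.10 to 4.11, exact adjusted p = 1.33e-09). Such genes are also denser on X, where 11.0% of the sequence outside promoters is that close to one, against 5.40% on autosomes. No member was near a snoRNA gene, where 25 autosomal summits were (1.80%, exact adjusted p = 0.0309), and 2 were near a piRNA gene, against 46 (3.31%, odds ratio 0.213, 95% interval 0.0249 to 0.822, exact adjusted p = 0.0309). X has 162 annotated piRNA genes and the autosomes 15201, and 0.881% of X sequence outside promoters is within 500 bp of one, against 6.28% on autosomes. For snoRNA genes the numbers are 33 and 313, and the shares of sequence 0.201% and 0.375%. Both calls depended on the setting: above the median signal, the exact adjusted p was 0.399 for snoRNA genes and 0.316 for piRNA genes, and in replicate 1 alone the former was 0.415. The 2 members near piRNA genes, 21ur-14279 and 21ur-14097, had signals of 104 and 103.

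Near a miRNA gene lay 3 members (1.08%, the same share as on autosomes, exact adjusted p = 1.00). The strongest lay in an intron of F09A5.3, 271 bp from the mir-54 and mir-55 cluster, with a signal of 367 (171 in replicate 1 and 203 in replicate 2). The others were near mir-73 (signal 71.3) and mir-237, a relative of lin-4 (66.0). Single members lay near the snRNA gene M163.13 (66.0) and in linc-103 (66.5), and 3 were near pseudogenes (1.08%), with signals of 233, 210.0 and 77.6. Of sequence outside promoters, 0.379% on X and 0.218% on autosomes is within 500 bp of a miRNA gene. For pseudogenes the shares of sequence are 3.44% and 6.33%.

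Sequence searches used 50 bp on each side of the summit, both strands, and 4 words that earlier work on these same peaks had found, so their counts are descriptions with no test. GCGCAGGG, called the 8-base motif in the plots, lay at 12 members (4.33%, 95% Wilson interval 2.50% to 7.42%). Of 554 flanking windows, centred 500 bp from a summit, 1 had it (0.181%), and it lay in 0.0372% of all windows of that size on X outside promoters, and at 4 of the 273 X promoter summits (1.47%). Of 1391 autosomal summits outside promoters, 0 had it, which allows a share of up to 0.216% when 3 counts are taken as the limit. The word was not missing from autosomes: outside promoters they hold 165 copies, of which 0 were at a summit, whereas X holds 64 copies, of which 14 were within 50 bp of a summit (21.9%). In X promoter windows 4 of 17 copies were at a summit (23.5%).

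Members with GCGCAGGG were mostly the strongest ones. In the upper 25% of members by signal 11 of 69 carried it, and in the lower steps it was 0, 1 and 0. The 12 members were those with nearest 5′ ends at xol-1, W02H3.3, F20B6.9, F22H10.2, gtr-1, T24D8.6, col-185 and dpy-23, and those in introns of mom-1, Y41G9A.17 (2 summits) and egl-17. The member named for dpy-23, a clathrin adaptor subunit gene, had a signal of 207 (111 in replicate 1 and 95.3 in replicate 2). That in egl-17, which encodes a fibroblast growth factor, was the weakest at 82.8 (45.0 and 38.8) and strong in both replicates, and it lay 53 bp from the aspartate tRNA gene F38G1.t2. The centre of the nearest copy lay 3 to 47 bp from the summit, and at mom-1 and near xol-1 there were 2 copies within 50 bp. Around the 12 nearest copies, read in the orientation of the word, the base before it was C in 8, the base before that T in 9, and the base after it A in 10.

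Copies with 1 mismatch were searched after these values had been seen. GCGCAGGG with at most 1 mismatch lay at 19 of the 30 strongest members (63.3%) and at 16 of the other 247 (6.48%). In all, 35 members had it (12.6%), beside 24 of the 273 X promoter summits (8.79%). The share was 1.24% in X windows outside promoters and 2.30% at autosomal summits there. Among all 8-base words, each counted with its reverse complement, the reverse complement CCCTGCGC and the overlapping words CCTGCGCG, CGCAGGGA and CTGCGCGA were each found at 10 of the 30 strongest members, more than any other word, followed by AATCAATA at 9. CCCTTCGC lay at 8 of the 30 (26.7%, against 0.0774% of X windows).

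AATCGAT and AATCAAT, which mammalian factors of the ONECUT class are known to bind, lay at more members than GCGCAGGG, and at far fewer than on autosomes. AATCGAT lay at 42 members (15.2%), in 1.44% of the flanking windows and in 1.16% of X windows outside promoters. AATCAAT lay at 46 members (16.6%), in 4.51% of flanking windows and in 3.66% of X windows. At least 1 of both words was at 80 members (28.9%, 95% Wilson interval 23.9% to 34.5%), beside 82 of the 273 X promoter summits, whereas autosomal summits outside promoters had 63.8%. The sequence itself differs in the same direction, with 4.78% of X windows outside promoters and 6.45% of autosomal ones. Most members had no copy: 197 had 0, 54 had 1 and 26 had 2 or more, with median signals of 92.1, 109 and 123. On autosomes 46.7% of such summits had 2 or more copies, with a median signal of 165. Overlapping matches, on the same or opposite strands, were each counted as a copy in both sets. The class of 2 or more copies therefore includes members with a single site. A trend of signal with the number of separate sites cannot be read from these classes.

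The last of the words, CTGCGTC, lay at 12 members (4.33%), in 0.181% of the flanking windows and in 0.479% of X windows. It was more frequent in promoters, at 11.4% of X promoter summits, and it lay at 7.33% of autosomal summits outside promoters. No member in the lowest 25% by signal had it.

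**Figure D3:**
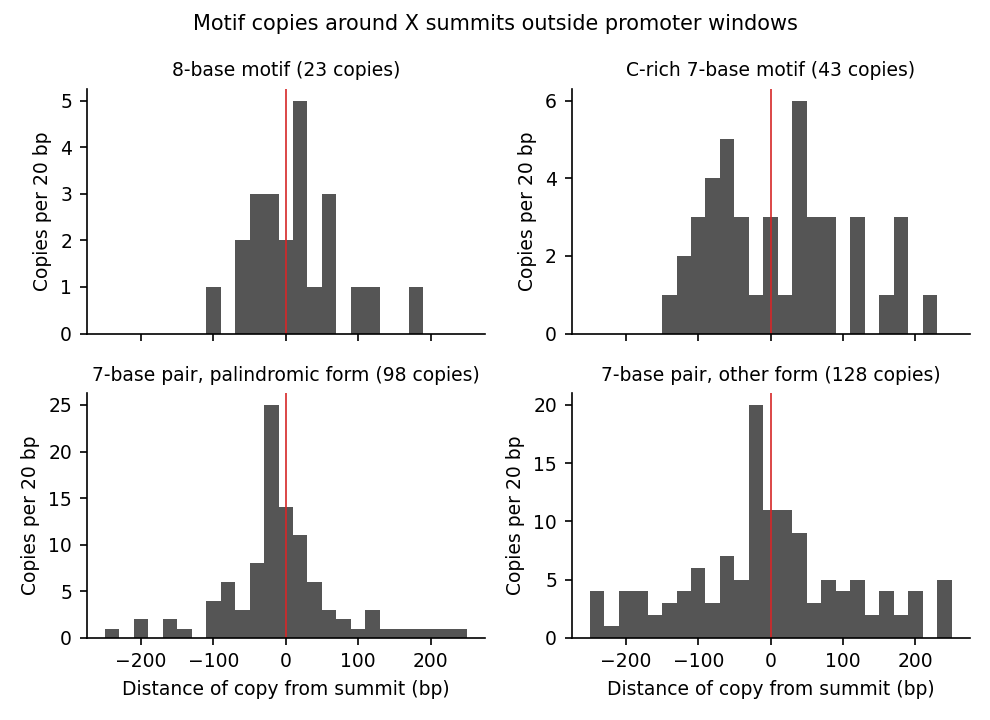
Number of motif copies per 20 bp against distance from the nearest summit (bp), over all 277 members, with a copy shared by members counted once. Overlapping matches, on the same or opposite strands, each count as a copy, so AATCGAT copies outnumber separate sites. The 8-base motif is GCGCAGGG, the C-rich 7-base motif CTGCGTC, and the 7-base pair AATCGAT (palindromic form) and AATCAAT (other form). Of 98 copies of AATCGAT within 250 bp, 49 are within 25 bp of the summit (red line), whereas of 43 copies of CTGCGTC 4 are.

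The words were centred on the summit to different degrees. Of the distinct copies within 250 bp of a member, 64 of 98 of AATCGAT were within 50 bp, 57 of 128 of AATCAAT, 14 of 23 of GCGCAGGG and 15 of 43 of CTGCGTC. Within 25 bp they were 49, 34, 8 and 4. A copy shared by members was counted once here. Overlapping matches were each counted, including those of AATCGAT on opposite strands, so its copies outnumber separate sites.

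Combinations of the words went with signal. The 6 members with GCGCAGGG and 1 or both of AATCGAT and AATCAAT had a median signal of 1917 (range 853 to 5643). The 5 with GCGCAGGG alone had a median of 311 (82.8 to 1737), and the 73 with AATCGAT or AATCAAT alone one of 114 (66.0 to 2606). Among the 5, the summits of 1221 and 311 in Y41G9A.17 lie in 1 interval. The median of 311 therefore rests on an interval counted more than once. The 181 members with none of the words had a median of 89.9 and reached 1358. The strongest of these, nearest to the 5′ end of K02D3.1, ranked 26 in the whole list.

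**Figure D4:**
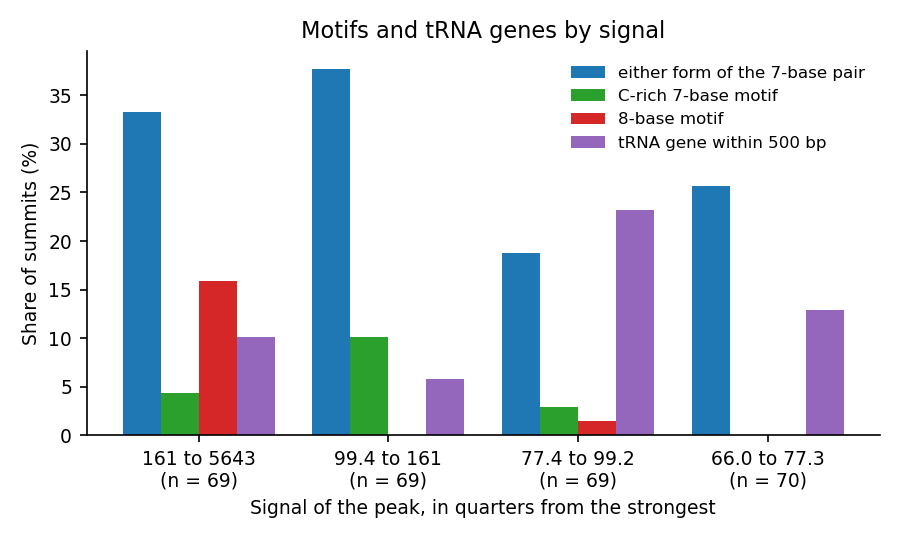
Share (%) of members with each motif within 50 bp of the summit, or with a tRNA gene within 500 bp, in 4 groups of members ordered by signal (range below each group, in caller units). The 7-base pair is AATCGAT or AATCAAT, the C-rich 7-base motif CTGCGTC and the 8-base motif GCGCAGGG. The 8-base motif is at 15.9% of the strongest group and 0 of the weakest. From the strongest group to the weakest, tRNA genes are near 10.1%, 5.80%, 23.2% and 12.9%.

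Members were rich in G and C at the summit. Windows of 50 bp on each side of it had a median of 42.6% (quartiles 35.6 and 48.5), the windows 500 bp to either side 33.7%, and X sequence outside promoters 34.7%. X promoter summits had 45.5%, and autosomal summits outside promoters only 32.7%, below their own flanks at 34.7%. Repeats marked by lower case in the RefSeq sequence filled a median of 12.9% of the windows at members and 25.7% of X windows outside promoters. Exact copies of the central 51 bp elsewhere in the genome were found for 2 members, with 20 and 31 copies in all, so the position of those peaks is uncertain. Both summits lay inside tRNA genes, the former in C42D8.t1 and the latter at the pair T10B10.t1 and T10B10.t2.

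**Figure D5:**
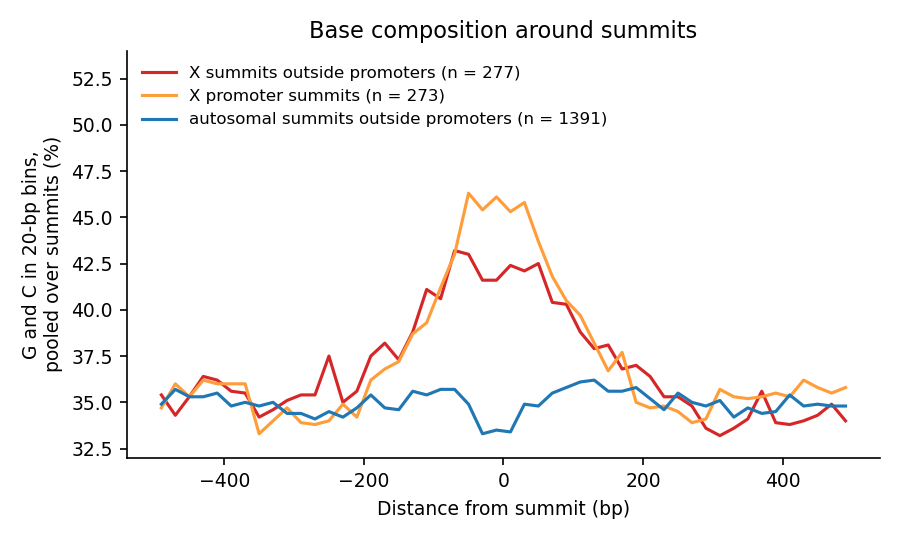
Share of G and C (%), pooled over summits in 20-bp bins, against distance from the summit (bp). The y axis starts at 32%. X summits outside promoters (red) and X promoter summits (orange) rise at the centre, and autosomal summits outside promoters (blue) do not.

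Of 9 known motifs tested, the NK-2 sequence TCAAGTG or TTAAGTG is the one that proteins of the class of CEH-28 bind. It lay at 8 members (2.89%, 95% Wilson interval 1.47% to 5.59%), in 3.07% of the flanking windows and in 2.44% of X windows outside promoters. Autosomal summits outside promoters had it in 1.44% (odds ratio 2.04, 95% interval 0.768 to 4.89, exact adjusted p = 0.531 over 18 tests), and X promoter summits in 0.733% (odds ratio 4.02, 0.792 to 39.2, exact adjusted p = 0.531). In replicate 2 alone the odds ratio against autosomal summits was 0.850 (exact adjusted p = 1.00), and against X promoter summits it was 1.97 in replicate 2 alone and 2.04 in replicate 1 alone. The 8 members had signals from 67.6 to 152, 7 were intergenic, and 4 were strong in both replicates.

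The B box word GGTTCGA was the single call. It lay at 9 members (3.25%) and at 10 autosomal summits outside promoters (0.719%), which gave an odds ratio of 4.63 (95% interval 1.65 to 12.8, exact adjusted p = 0.0300), and 8 of the 9 members were near tRNA genes. The call was lost in replicate 1 alone (odds ratio 2.17, exact adjusted p = 0.765) and in replicate 2 alone (1.57, exact adjusted p = 0.815). X promoter summits had GGTTCGA in 2.93%. None of the 9 motifs passed the threshold against X promoter summits, with adjusted p from 0.531 to 1.00. Motifs of GATA factors (GATAAG, 22 members), forkhead factors (TGTTTAC or TATTTAC, 12), the E-box (CACGTG, 9), homeodomains (TAATTA, 9), GAGAGAG (27), Sp1 and KLF factors (GGGCGG, 7) and the heat shock factor (TTCTAGAA, 1) gave adjusted p of at least 0.494 in both comparisons. The forkhead word had the smallest, at 4.33% against 2.16% of autosomal summits (odds ratio 2.05, 0.945 to 4.19, and 1.23 in replicate 1 alone).

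Genes that held a member in their body were few. Of 2731 X protein-coding genes 72 did, which is 2.64% and the background for the lists below. They were long, with a median length of 6579 bp against 2548 bp for all X genes. Members lie outside promoter windows by definition and longer genes have more such sequence, which was not adjusted for. After mom-1, Y41G9A.17 and pks-1, the highest signals were at F09A5.3 (367), pdk-1, a kinase gene of insulin signalling (285), ldb-1, a cofactor of LIM homeodomain proteins (221), and nhr-3 (217).

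Of the 11 gene lists, nuclear hormone receptors had 7 of 27 X-linked genes with a member (25.9%), where the median gene length was 4321 bp. The strongest were nhr-3 (signal 217), daf-12, a receptor that times larval development and dauer formation (163), and nhr-14 (161), and the other 4 had signals from 80.3 to 86.9. The heterochronic list had daf-12 alone among 5 genes (ain-1, alg-1, hbl-1 and lin-14 had none), and the Wnt list had mom-1 alone among 4. Of 7 X-linked genes known from M4 or as CEH-28 targets, sma-9, the worm Schnurri gene of the DBL-1 pathway (84.4), and egl-17 (82.8) had a member, while ceh-28 itself, flp-2, flp-5, lon-2 and ser-7 had none in the gene body. Intergenic members also lay 3022 and 2821 bp upstream of sma-9, with signals of 318 and 136. They shared a strong peak in each replicate.

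The list of ion channels and neurotransmitter receptors had 1 of 74, the potassium channel gene unc-58 (71.8). That of neuropeptides had 1 of 36, nlp-53 (72.9), and that of muscle genes 1 of 16, the actin gene act-4 (70.1). None of the 26 homeobox genes, 27 genes of axon guidance and adhesion, or 30 collagen genes listed had one. The 6 X-linked genes of dosage compensation and sex determination, ceh-39, fox-1, sdc-1, sdc-2, sex-1 and xol-1, also had none in the gene body. Genes were counted by summits in the body outside promoter windows, and no test of the lists was made. The lists are not complete. The channel gene deg-1 (signal 169), the muscle gene dim-1 (119) and the heterochronic gene kin-20 (124) had a member but were not on these lists.

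Along X the members were spread. From left to right, 4 equal parts of the chromosome held 63, 78, 58 and 78, or 17.8, 23.1, 17.1 and 22.0 per Mb of sequence outside promoters. Of the 12 members with GCGCAGGG, 7 lay in the leftmost part and 2, 1 and 2 in the others. The outer 25% at either end held 141 members (50.9%), where X has 51.1% of its sequence outside promoters, against 68.4% of autosomal summits there and 51.7% of autosomal sequence (odds ratio 0.478, 95% interval 0.365 to 0.627, exact adjusted p = 1.15e-07). The median gap between neighbouring members was 27051 bp. The 17 members among the 100 strongest peaks of the list stood far apart, with gaps from 186253 bp to 2035834 bp.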

How the data were processed

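Peaks came from chromatin immunoprecipitation and sequencing of 2 biological replicates of 1 group, both numbered in the labels, with library fragments of 150 to 350 bp, per the labels. Per the deposited file records, a relaxed list of 30000 peaks was made for each replicate and for both pooled, against a control on ce11, and a thresholded list of 3531 was derived from them by the irreproducible discovery rate. The names and versions of the caller and aligner were not given in the sources used here. Each list holds a signal for every peak. The deposited signal of each peak is the authors' own value, on a scale not stated, and was used to describe, rank and filter peaks within a list. Lists of fixed length carry no depth, and intervals cover counting error of peaks only.

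The members, the gene lists and the tests were chosen with earlier results of these data known. Summits were placed on 31853 protein-coding transcripts of Ensembl release 115, coding exon before UTR before intron. Sequence came from RefSeq's WBcel235. Motifs were matched on both strands within 50 bp, and overlapping matches were each counted as a copy. Of the motifs searched, GGTTCGA is part of tRNA genes, and matches to GCGCAGGG with 1 mismatch can overlap CTGCGTC. Classes of peaks were compared with a two-sided Fisher's exact test, giving conditional odds ratios, and with Benjamini-Hochberg adjustment within 18 motif tests and within 15 location tests, at 0.05. Overlap between lists needed 1 bp. In the replicate 2 list 1 summit lay past the end of its interval and was set to the last base. Names of tRNA isotypes were found for 273 of 276 X genes.

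Members described singly were the 20 strongest found in both replicates, all with GCGCAGGG, all of classes of 5 or fewer, the 3 strongest of each gene list, and the 3 nearest to a window's limit on each side. Searches with a mismatch, 8-base words, base composition, sequence shares, and further members near tRNA genes and inside genes were added after the values were seen. Alternatives were each replicate alone, peaks above the median signal, other promoter windows, and other distances. The tests were checked on simulated data. Python 3.11.15 with numpy 2.4.6, scipy 1.17.1 and matplotlib 3.10.9 was used.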

Additional observations from a re-analysis of the deposited data

How the results depend on the processing

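Restricted to peaks above the median signal, 124 members and 26 genes with a member in the body were left, 100% of the members were strong in both replicates, AATCGAT or AATCAAT lay at 35.5%, GCGCAGGG at 8.87%, and 8.06% were within 500 bp of a tRNA gene. With 25 bp on each side of the summit, AATCGAT or AATCAAT lay at 18.4% and CTGCGTC at 1.44%, and with 100 bp at 36.5% and 10.8%. The number of known motifs that passed against autosomal summits, 1 in the report, was 0 above the median signal, with 25 bp on each side, with a promoter window from 2000 bp upstream, and in each replicate alone (range 0 to 0), and the cause was not tested. The odds ratio of the B box word was then 1.00, 3.79 and 4.24, with adjusted p of 1.00, 0.851 and 0.612. Its call was kept with a window from 500 bp upstream to 100 bp downstream (odds ratio 4.73, exact adjusted p = 0.00459). With 100 bp on each side of the summit it was also kept (odds ratio 3.35, exact adjusted p = 0.00773). The snoRNA call was lost in 3 of these alternatives (replicate 1 alone, peaks above the median signal and the wider promoter window) and the piRNA call in 2 (peaks above the median signal and a window from 500 bp upstream to 100 bp downstream). Odds ratios that had passed no test changed direction in some alternatives. Against X promoter summits, the E-box gave 1.34 above the median signal and 1.32 with 25 bp, GAGAGAG 1.29 with 25 bp, GGGCGG 1.07 above the median and 1.13 with the wider window, and TTCTAGAA 1.06 above the median and 1.23 with the narrower window. The B box word gave 0.509 with the wider window, and the forkhead word 0.701 above the median, 0.881 and 0.960 with the narrower and wider windows, and 0.985 with 25 bp. Against autosomal summits, the E-box gave 0.998 with the narrower window and 0.912 with 25 bp, GAGAGAG 0.786 above the median, GGGCGG 0.417 with 25 bp and 0.876 with 100 bp, and the share strong in both replicates 1.05 with the wider window. In single replicates the odds ratio against X promoter summits ranged from 0.361 to 1.00 for the B box word, from 0.537 to 1.20 for the E-box, from 0.862 to 1.17 for GATAAG and from 0.695 to 2.00 for the forkhead word. Against autosomal summits it ranged from 0.857 to 0.918 for the E-box, from 0.739 to 0.884 for GAGAGAG and from 0.850 to 2.17 for the NK-2 word. The cause of these changes was not tested. The other location calls kept their direction and their side of the threshold in the alternatives run. No paired analysis was possible because there is 1 group. Depth is unknown, so no limit on weak peaks can be given.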

Other observations

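Over all 277 members, words other than those described were also frequent within 50 bp of the summit. GAGAGAAA lay at 22 members (7.94%), against 0.948% of X windows outside promoters, and GAGAGAGA at 17 (6.14%, against 0.491%). CACACACA lay at 16 (5.78%, against 0.562%). AATCAATA was the most frequent 8-base word, at 30 members (10.8%, against 0.999%), and AATCGATA lay at 24 (8.66%, against 0.422%). AAAAAAAA lay at 22 members (7.94%), below its share of X windows (11.6%). The 27 members with GAGAGAG had a median signal of 88.1, beside 99.2 over all members, and 19 of them were strong in both replicates and 20 intergenic.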
